A study of Homo sapiens with 6 samples.

Results

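NABP2 encodes a small protein that binds single-stranded DNA and forms the SOSS complex with INTS3 and INIP, and it was examined here together with 7 related genes. The 8 genes were NABP2, its paralog NABP1, the SOSS subunits INTS3 and INIP, the associated Integrator subunit INTS6, and the 3 subunits of replication protein A (RPA1, RPA2 and RPA3). Each was found by its symbol among 57905 genes of the deposited table, and all 8 were among the 15343 genes that passed the filter on low counts. NABP2 was chosen by its measured counts in this same comparison, so its change is given as a description without a test. The other 7 genes were listed for their known relation to it, with earlier results of these data known.

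Poly-A RNA was sequenced from HK-2 cells, an immortalized human cell line from the renal proximal tubule, 48 h after transfection. The control group (3 libraries) received a pool of non-targeting siRNAs, and the INO80 group (3 libraries) received a pool of siRNAs against INO80, the ATPase of a chromatin remodeling complex. The labels give no other treatment, the knockdown was transient and partial, and no source used here says that the replicates were separate cultures, so the p-values measure the spread between these samples, which may be technical. The comparison asks which transcripts differed after INO80 was reduced.

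Cells coat exposed single-stranded DNA with proteins that carry a fold called the OB fold. RPA, a trimer of a large, a middle and a small subunit, does this at replication forks and resected breaks, and it recruits the checkpoint kinase ATR. The NABP proteins act beside RPA, each joining INTS3 and INIP in alternative SOSS complexes that take part in the response to double-strand breaks, and INTS3 and INTS6 also belong to Integrator, which trims small nuclear RNAs and ends transcription early.

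The libraries held 16829273 to 20311588 counts in the control group and 20678008 to 23784599 in the INO80 group. INO80 itself was 46.3, 49.3 and 54.0 CPM (counts scaled to a common library size with TMM factors) in control replicates 1, 2 and 3, and 13.8, 12.0 and 14.2 CPM in the INO80 replicates, a log2 fold change of -1.90 (SE 0.0956, edgeR adjusted p = 0.000161). Replicate 1 of both groups stood apart from the other libraries in the same way, and same-numbered libraries deviated together. A second edgeR fit therefore blocks on this number. Its values stand beside the calls it changed among the members and most other named genes. Of 11 proximal tubule markers, 8 were under 1 FPKM in every library, LRP2, CUBN, AQP1 and ANPEP among them, while GGT1, PAX8 and MME were above it. The summed level of all 11 was 78.7 to 83.2 FPKM in the control group and 78.6 to 83.2 FPKM in the INO80 group. GGT1 and PAX8 made up most of this sum. They ranged from 31.4 to 43.7 FPKM and from 33.4 to 48.7 FPKM over the 6 libraries, so each varied more than the sum did. Of 4 epithelial markers, the keratins KRT8, KRT18 and KRT19 were detected and CDH1 was at most at 0.08 FPKM in any library, and the 3 markers of other cell types (PTPRC, UMOD and AQP2) were listed at 0 FPKM in all 6 libraries.

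NABP2 was lower in every INO80 library, its SOSS partner INTS3 was lower by a smaller amount, and its other partner INIP was slightly higher. Transcripts of RPA1 and RPA2 were at similar levels in both groups, and NABP1 was lower within each replicate pair but varied more between replicates than between groups. Promoters of NABP2, INTS3 and NABP1 are shown first, because NABP2 and INTS3 are the members that were lower without overlap between the groups and NABP1 is the paralog. They are 300 bases long, end 50 bases after the RefSeq start (GRCh38.p14) and are written 5′ to 3′ on the strand of the gene. Capitals mark the ETS core motif CCGGAAG and the CCAAT box on either strand.
NABP2 promoter, chr12:56224092-56224391, plus strand: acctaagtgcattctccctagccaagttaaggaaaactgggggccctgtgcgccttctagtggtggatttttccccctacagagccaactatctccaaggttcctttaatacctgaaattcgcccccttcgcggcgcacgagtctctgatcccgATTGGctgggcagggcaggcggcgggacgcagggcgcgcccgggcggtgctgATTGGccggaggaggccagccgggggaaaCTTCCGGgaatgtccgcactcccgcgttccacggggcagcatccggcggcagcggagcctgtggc
INTS3 promoter, chr1:153727800-153728099, plus strand: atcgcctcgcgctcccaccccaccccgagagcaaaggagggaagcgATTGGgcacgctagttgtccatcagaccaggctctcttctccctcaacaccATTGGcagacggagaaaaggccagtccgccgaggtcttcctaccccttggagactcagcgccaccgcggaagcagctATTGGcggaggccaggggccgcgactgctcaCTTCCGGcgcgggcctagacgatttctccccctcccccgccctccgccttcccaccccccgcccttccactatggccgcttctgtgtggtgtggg
NABP1 promoter, chr2:191677886-191678185, plus strand: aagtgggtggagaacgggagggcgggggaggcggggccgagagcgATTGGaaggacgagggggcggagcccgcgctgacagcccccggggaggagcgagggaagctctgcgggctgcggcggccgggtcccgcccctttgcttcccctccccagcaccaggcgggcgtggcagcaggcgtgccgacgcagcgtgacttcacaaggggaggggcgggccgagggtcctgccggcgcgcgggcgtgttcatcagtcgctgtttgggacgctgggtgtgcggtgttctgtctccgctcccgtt

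The promoters of NABP2 and INTS3 each held the ETS core, which 10.2% of 34796 RefSeq promoters of the same length hold, together with CCAAT boxes, which 34.6% hold. Both motifs occurred together in 3.38% of all promoters. NABP2 and INTS3 were shown because they were lower here, and this motif pair was not named beforehand, so the match is not a test. The background holds all RefSeq promoters and not only those of the tested genes. The NABP1 promoter held 1 CCAAT box and no ETS core, and of the other members with a promoter in the table, RPA1 held 2 CCAAT boxes and INTS6 none, both without an ETS core. The GC box GGGCGG, found in 44.9% of promoters, occurred 1 time in NABP2, 2 times in INTS3, 4 times in NABP1, 4 times in INTS6 and 3 times in RPA1. Searches on both strands for the E2F forms TTTCGCGC and TTTGGCGC, the cyclic AMP element TGACGTCA, the YY1 motif GCCATNTT and the NRF1 motif found no match in these 5 windows, against 0.506%, 0.652%, 1.84%, 6.58% and 1.23% of all promoters. GC content was 63.7% in the NABP2 window, 65.7% in that of INTS3 and 73% in that of NABP1. These matches describe letters in a window, and their part in the measured levels was not tested.

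NABP2 (ENSG00000139579, chromosome 12, 56615799 to 56623638 on the plus strand, GRCh37 coordinates of the deposited table) is also known as SOSS-B1 or hSSB1 and is the DNA-binding subunit of SOSS. Its raw counts were 527, 660 and 621 in control replicates 1, 2 and 3, and 253, 349 and 304 in INO80 replicates 1, 2 and 3. After scaling these were 32.1, 32.3 and 32.1 CPM against 12.6, 14.5 and 12.6 CPM. The groups did not overlap, and the lowest control library was above the highest INO80 library. The mean was 32.2 ± 0.101 CPM in the control group and 13.2 ± 1.09 CPM in the INO80 group (SD, n = 3 each), or 0.410 of the control level. The fitted log2 fold change was -1.29 (SE 0.0876), and the log2 ratios within replicate pairs 1, 2 and 3 were -1.35, -1.16 and -1.36. Leaving out any 1 library gave log2 fold changes of -1.36 to -1.25. The spread of the control libraries, 0.101 CPM, lay below the 1.32 CPM that counting error alone gives at this depth, so the closeness of those 3 values is not a measure of biological precision. The INO80 libraries had an SD of 1.09 CPM against a counting SD of 0.761 CPM.

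INTS3 (ENSG00000143624, chromosome 1, 153700543 to 153746555, plus strand) is the scaffold subunit that holds an NABP protein and INIP together. Its raw counts were 803, 1037 and 984 in the control libraries and 697, 783 and 844 in the INO80 libraries. Scaled levels were 49.0, 50.8 and 50.9 CPM against 34.7, 32.4 and 34.8 CPM, without overlap between the groups. INTS3 fell from a mean of 50.2 ± 1.07 CPM to 34.0 ± 1.35 CPM (n = 3 each, with the SD). Its log2 fold change was -0.56 (SE 0.0650, 95% interval -0.71 to -0.42, edgeR adjusted p = 0.00775), a level 32.3% lower. The log2 ratios within pairs 1, 2 and 3 were -0.50, -0.65 and -0.55, and the fit with the replicate block kept INTS3 past the threshold. It did not pass the threshold without control replicate 2, control replicate 3 or INO80 replicate 3, where edgeR adjusted p was 0.0618, 0.0655 and 0.0574 at log2 fold changes of -0.56, -0.56 and -0.58, nor with limma on FPKM values (adjusted p = 0.0518).

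INIP (ENSG00000148153, chromosome 9, 115446206 to 115480516, minus strand) encodes the smallest subunit of SOSS. Levels were 47.4, 49.2 and 48.7 CPM in the control libraries and 53.4, 58.6 and 55.1 CPM in the INO80 libraries. Every INO80 library was above every control library, opposite in sign to NABP2 and INTS3. The mean was 48.4 ± 0.937 CPM against 55.7 ± 2.63 CPM (SD, n = 3 each), and the log2 fold change was 0.20 (SE 0.0632, 95% interval 0.06 to 0.35), which did not pass the threshold (edgeR adjusted p = 0.161). With the replicate block the log2 fold change was again 0.20 (SE 0.0511) and passed it (edgeR adjusted p = 0.00432), while DESeq2 gave an adjusted p of 0.212 without the block and 0.0774 with it, so the call was lost with that tool. Without pair 2 the blocked fit did not pass (edgeR adjusted p = 0.0805).

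INTS6 (ENSG00000102786, chromosome 13, 51928213 to 52028400, minus strand) is an Integrator subunit that has been found with SOSS and that links Integrator to a protein phosphatase. Levels were 30.6, 35.1 and 30.8 CPM in the control libraries and 30.8, 29.2 and 28.8 CPM in the INO80 libraries. The groups overlapped, and control replicate 2 was the highest library. The log2 fold change was -0.12 (SE 0.0823, 95% interval -0.31 to 0.07, edgeR adjusted p = 0.517), or -0.052 without control replicate 2, and the pair log2 ratios of 0.01, -0.27 and -0.10 differed in sign.

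NABP1 (ENSG00000173559, chromosome 2, 192542794 to 192561385, plus strand), also known as SOSS-B2 or hSSB2, can take the place of NABP2 in SOSS. Its raw counts were 5718, 5016 and 4891 in the control libraries and 6107, 5050 and 5172 in the INO80 libraries. Scaled levels were 349, 246 and 253 CPM against 304, 209 and 213 CPM, so replicate 1 was high in both groups and the groups overlapped. Counting error was small here, 3.90 CPM in the control group and 3.27 CPM in the INO80 group, against replicate SDs of 57.6 and 53.4 CPM. Without regard to replicate number the log2 fold change was -0.22 (SE 0.174, 95% interval -0.62 to 0.17, edgeR adjusted p = 0.589), and this value moved to -0.043 without control replicate 1 and to -0.42 without INO80 replicate 1. Within pairs 1, 2 and 3 the log2 ratios were -0.20, -0.23 and -0.24, and the fit with the replicate block gave -0.23 (SE 0.0342, edgeR adjusted p = 1.98e-05). That call also held in the blocked fits without each of the 3 pairs in turn, with log2 fold changes of -0.24, -0.22 and -0.21. Those fits keep few libraries and take the spread of a gene largely from that of other genes. Without pair 1 the edgeR adjusted p was 6.8e-13, smaller than with all pairs, so passing there adds no support to the call. A lower level in each INO80 library than in its pair was seen for both NABP paralogs, at -1.28 on the log2 scale for NABP2 in the blocked fit and -0.23 for NABP1.

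**Figure D1:**
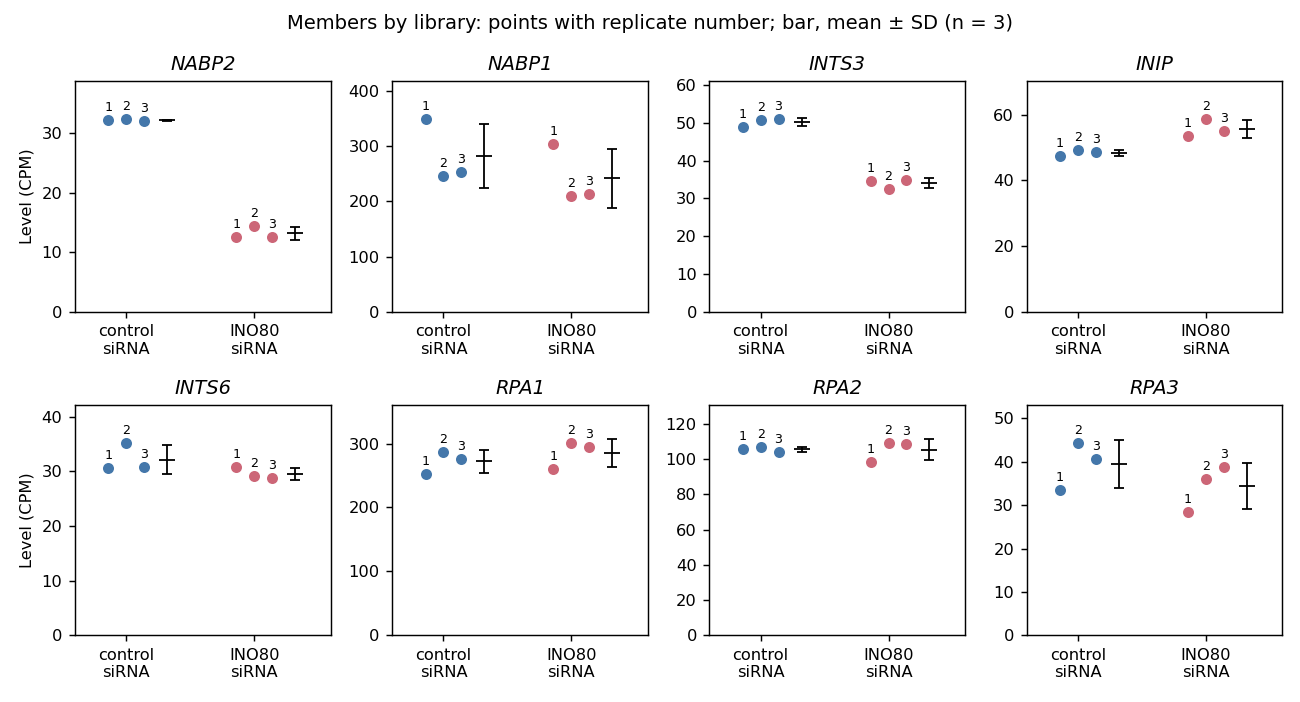
Level of each of the 8 genes in CPM (TMM-scaled, linear axes from 0) in the 3 control siRNA and 3 INO80 siRNA libraries, with the replicate number above each point and each group mean with its SD beside the points. The NABP2 points lie between 32.1 and 32.3 CPM in the control group and between 12.6 and 14.5 CPM in the INO80 group, while the NABP1 points of both groups span a shared range with replicate 1 highest.

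RPA1 (ENSG00000132383, chromosome 17, 1732996 to 1803376, plus strand) encodes the large subunit of RPA and most of its DNA-binding surface. Levels were 253, 287 and 276 CPM in the control libraries and 260.0, 301 and 295 CPM in the INO80 libraries. The groups overlapped, with replicate 1 lowest in each. The log2 fold change was 0.068 (SE 0.0762, 95% interval -0.11 to 0.24, edgeR adjusted p = 0.719). It was 0.018 without control replicate 1 and 0.13 without INO80 replicate 1. RPA2 (ENSG00000117748, chromosome 1, 28218035 to 28241257, minus strand) encodes the middle subunit, which is phosphorylated after DNA damage. Levels were 106, 107 and 104 CPM against 98.3, 109 and 109 CPM, again with overlap. Its log2 fold change was -0.0012 (SE 0.0610, edgeR adjusted p = 0.997), and the 95% interval of -0.14 to 0.14 bounds the difference at this depth.

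RPA3 (ENSG00000106399, chromosome 7, 7676149 to 7758238, minus strand) encodes the small subunit that holds the trimer together. Levels were 33.4, 44.3 and 40.7 CPM in the control libraries and 28.4, 36.1 and 38.7 CPM in the INO80 libraries. Replicate 1 was lowest in both groups, and the groups overlapped. The log2 fold change was -0.20 (SE 0.137, 95% interval -0.51 to 0.11, edgeR adjusted p = 0.527). It was -0.30 without control replicate 1 and -0.080 without INO80 replicate 1. The pair log2 ratios were -0.23, -0.30 and -0.07, and with the replicate block the change of -0.20 (SE 0.0608) passed the threshold (edgeR adjusted p = 0.0171). Without pair 2 the blocked fit did not pass it (edgeR adjusted p = 0.238), nor did DESeq2 with the block (adjusted p = 0.166). The 3 RPA subunits thus did not differ beyond the spread between replicates without the block, and 1 of 3 did with it by edgeR but not by DESeq2.

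Of the 7 genes other than NABP2, 1 was called lower (INTS3) and 0 were called higher by edgeR at an adjusted p of 0.05. Over all tested genes, 1.49% were called lower and 0.261% higher. At an unadjusted p of 0.05, 1 of the 7 was lower and 1 higher, against 9.2% and 7.18% of all tested genes. DESeq2 called 1 lower and 0 higher, against 3.87% and 1.06% of the genes to which it gave an adjusted p. With the replicate block, 3 of the 7 were called lower (NABP1, INTS3 and RPA3) and 1 higher (INIP), where 13.4% of all tested genes were called lower and 11.4% higher. Groups did not overlap in 1 of the 7 in the lower direction and in 1 in the higher direction, against 11.5% and 11.3% of all tested genes, so those counts were near the background. The median log2 fold change of the 7 was -0.12, beside 0.0066 over all tested genes.

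**Figure D2:**
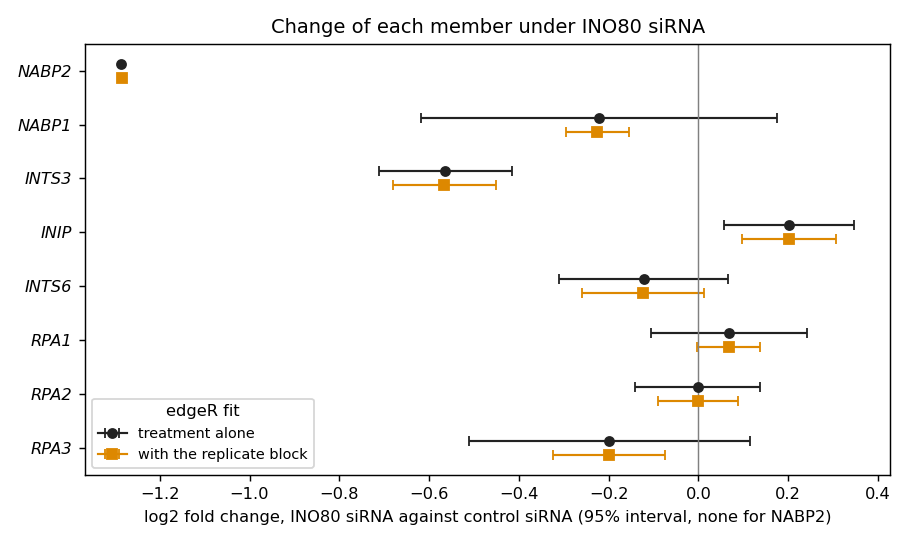
Log2 fold change of the 8 genes, INO80 siRNA against control siRNA, with 95% intervals from the edgeR fit on treatment alone (black circles) and with the replicate block (orange squares), and no interval for NABP2, which this comparison chose. The interval of INTS3 spans -0.71 to -0.42, while the interval of NABP1 narrows around -0.23 when the block is added.

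Levels between genes can be compared only per length of transcript, and the deposited FPKM values divide by the summed length of all annotated exons. Under control siRNA the order was RPA2 at 52.0 ± 1.05 FPKM, RPA1 at 49.3 ± 4.06 FPKM, NABP1 at 20.3 ± 3.73 FPKM, NABP2 at 14.5 ± 0.288 FPKM, RPA3 at 12.2 ± 1.91 FPKM, INIP at 10.9 ± 0.407 FPKM, INTS3 at 5.14 ± 0.202 FPKM and INTS6 at 3.63 ± 0.333 FPKM (SD, n = 3). The neighbours RPA2 and RPA1, and RPA3 and INIP, lay within their spread. The order turned with the length used, since per canonical GENCODE transcript length NABP1 came first at 123.6 ± 22.7 (same scale), above RPA2 at 66.3 ± 1.34 and RPA1 at 55.9 ± 4.599. These values divide the counts of the whole gene by the canonical length alone. Any reads outside the canonical transcript would therefore raise them, most of all where the 2 lengths differ much, as for NABP1. Under INO80 siRNA, NABP2 stood at 5.97 ± 0.578 FPKM, below INIP at 12.6 ± 0.862 FPKM and RPA3 at 10.7 ± 1.91 FPKM. INTS3 was then at 3.50 ± 0.133 FPKM beside INTS6 at 3.36 ± 0.04 FPKM, but per canonical transcript length INTS3 was at 6.48 ± 0.248 and INTS6 at 4.03 ± 0.0462.

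Within each library NABP2 made up a smaller share of the FPKM of both paralogs under INO80 siRNA. The share was 36.5, 45.0 and 44.2% in the control replicates and 20.5, 30.1 and 26.8% in the INO80 replicates, a mean of 41.9 ± 4.71% against 25.8 ± 4.86% (SD, n = 3 each). The groups did not overlap, and replicate 1 was lowest in both. Because NABP2 was chosen by this comparison, the fall in its share follows in part from that choice and is a description without a test. Summed over both paralogs the level was 34.8 ± 3.44 FPKM in the control group and 23.5 ± 2.98 FPKM in the INO80 group. The size of the share depended on the length used, since the exons annotated for NABP1 sum to 13806 bases but its canonical GENCODE transcript is 2269 bases long. Per canonical transcript length, still with the counts of the whole gene, the share was 15.9 ± 2.51% against 8.35 ± 1.91%, and by raw counts it was 10.4% against 5.33%. Which paralog was more abundant was thus the same with both lengths, but by how much was not.

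**Figure D3:**
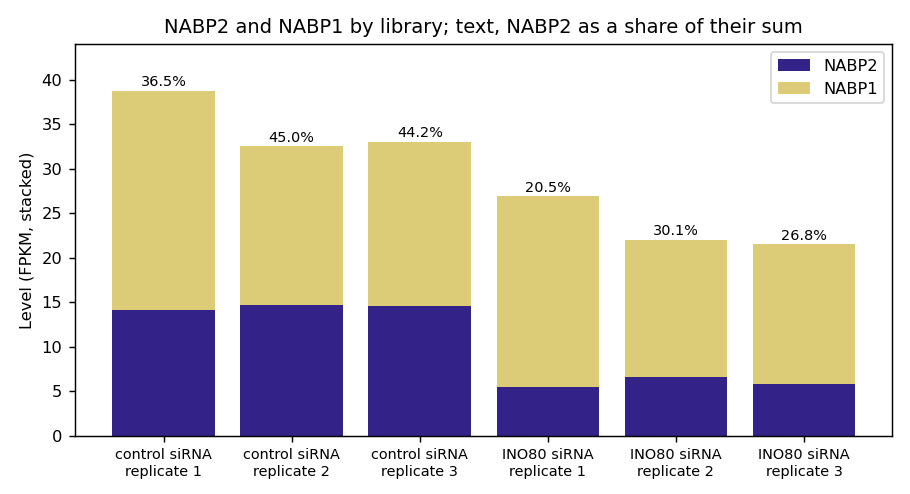
FPKM of NABP2 and NABP1 stacked in 1 bar for each of the 3 control and 3 INO80 libraries, with the percentage of the sum that came from NABP2 above each bar. The share lies between 36.5 and 45.0% in the control libraries and between 20.5 and 30.1% in the INO80 libraries.

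No annotated gene overlaps NABP2, NABP1, INIP or RPA2 in the deposited table, so their reads have no competing gene in the same place. RPA3 is overlapped on the other strand by RPA3-AS1, with 173 to 270 counts per library and a log2 fold change of 0.071 (SE 0.104). RPA1 is overlapped by SMYD4, with 490 to 765 counts and a log2 fold change of 0.025 (SE 0.0906), by AC016292.3 with 10 to 20 counts and by AC130689.1 with none. INTS6 is overlapped by SERPINE3, INTS6-AS1, RPS4XP16, RP11-24B19.3 and RP11-24B19.4, none above 65 counts, and INTS3 by RP11-216N14.8, RP11-216N14.9 and snoU13 with at most 1 count. Whether the counting used the strand was not given in the sources used here. It is thus not known how reads were assigned in the stretches that RPA3 and RPA1 share with an overlapping gene. RPA1 itself had 4142 to 7258 counts per library and RPA3 548 to 938, and SMYD4 shares only the first part of the RPA1 span. Processed copies can also share reads, and of these RPA2P1 and RPA2P2 had 0 counts, RPA2P3 1 to 6 and INTS6P1 5 to 14.

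The genes next to NABP2 had levels at or above those of the control group. The nearest tested gene upstream, RNF41, which encodes a ubiquitin ligase, starts 82 bases away on the opposite strand. That distance is from the start of the NABP2 span in GRCh37. The promoter window above was placed by the RefSeq start in GRCh38, and the 2 starts were not compared. Its level was 28.9 ± 4.01 CPM in the control group and 34.4 ± 5.28 CPM in the INO80 group, a log2 fold change of 0.25 (SE 0.138, edgeR adjusted p = 0.415, and 0.00309 with the replicate block). ANKRD52, the nearest tested gene downstream, was at 324 ± 16.0 CPM against 369 ± 18.6 CPM, a log2 fold change of 0.19 (SE 0.0631, edgeR adjusted p = 0.180, and 1.00e-04 with the block). All 5 tested genes within 50 kb of NABP2 had log2 fold changes of 0.0030 to 0.25. Around all 8 members there were 21 tested neighbours, and edgeR called 0 of them, with 2 at an unadjusted p of 0.05, 0 by DESeq2 and 4 with the replicate block, against 24.8% of all tested genes called with the block in either direction. At an unadjusted p of 0.05, 9.2% of all tested genes were lower and 7.18% higher. SLC27A3, a fatty acid transport gene that starts 275 bases past the end of INTS3 on the same strand, had a log2 fold change of -0.86 (SE 0.314, edgeR adjusted p = 0.220, and 0.00490 with the block) at only 32 to 80 counts per library.

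**Figure D4:**
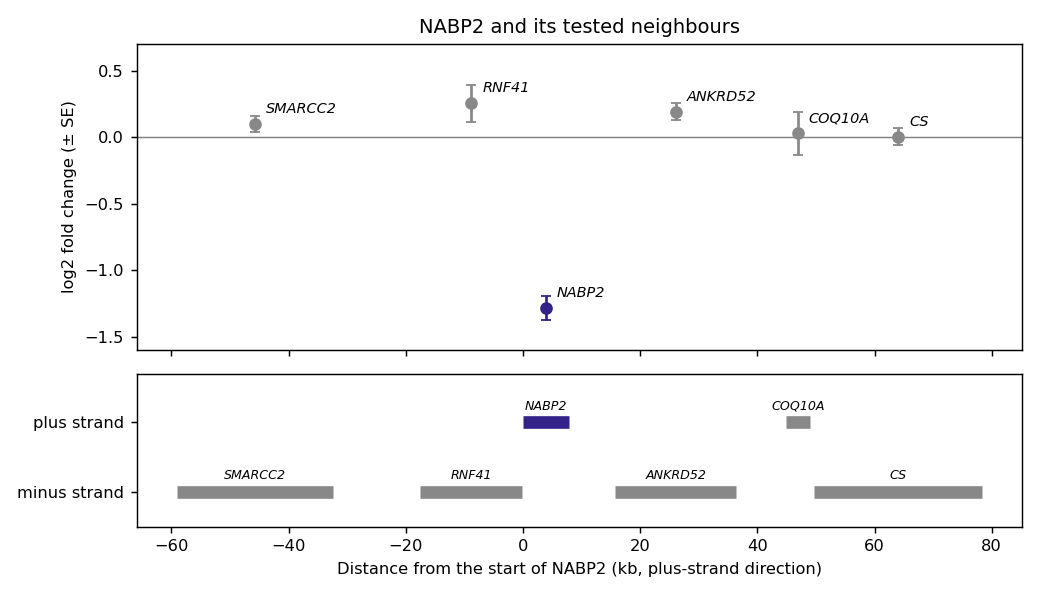
Log2 fold change with its SE of the tested genes near NABP2, plotted at the middle of each gene against the distance from the NABP2 start in kb, above a map of the gene spans by strand. NABP2 lies at -1.29 and its 5 tested neighbours lie between 0.0030 and 0.25.

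The list of other Integrator genes held 15, including BRAT1, a binding partner and not a subunit. All 15 were tested, and edgeR called 0 lower and 0 higher, as did DESeq2. At an unadjusted p of 0.05, 1 was lower and 3 higher (BRAT1 among them), against 9.2% and 7.18% of all tested genes. The median log2 fold change of the 15 was 0.073 and the range -0.21 to 0.38. With the replicate block, 1 was called lower (INTS10) and 4 higher (INTS1, INTS4, INTS5 and BRAT1), where 13.4% and 11.4% of all tested genes were, so the list is described gene by gene without reading its count as particular to it. INTS5 was at 17.4 ± 2.35 CPM against 22.7 ± 0.541 CPM, a log2 fold change of 0.38 (SE 0.108, edgeR adjusted p = 0.127, and 0.000897 with the block). BRAT1, which binds the Integrator nuclease and was first known as a partner of BRCA1 and ATM, had a log2 fold change of 0.32 (SE 0.0873, edgeR adjusted p = 0.114, and 0.000978 with the block). INTS4, which holds the nuclease module, had a log2 fold change of 0.26 (SE 0.0934, edgeR adjusted p = 0.216, and 0.0240 with the block). INTS10 had a log2 fold change of -0.21 (SE 0.0811, edgeR adjusted p = 0.248, and 0.0120 with the block), and INTS7 and INTS13 had values of -0.12 and -0.021 that passed in neither fit. INTS6L, the paralog of INTS6, had a log2 fold change of -0.0035 (SE 0.166).

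Other proteins that bind single-stranded DNA were represented by 9 genes, of which 7 were tested and RPA4 and TEN1 had at most 8 counts in any library. CTC1, the large subunit of the CST complex that binds telomeric single strands, fell from a mean of 24.9 ± 2.49 CPM to 16.3 ± 0.969 CPM (n = 3 each, with the SD), and its log2 fold change was -0.61 (SE 0.102, edgeR adjusted p = 0.0308). It did not pass the threshold when any of the 6 libraries was left out, and it did with the replicate block. It was the only gene of the 7 called by edgeR, which called 1.49% of all tested genes lower. STN1, a partner of CTC1 in CST, had a log2 fold change of 0.12 (SE 0.126). The shelterin subunit ACD had a log2 fold change of -0.14, RADX (listed as CXorf57) of -0.34, POT1 of 0.12 and the mitochondrial protein SSBP1 of 0.055, none past the threshold in either fit. The median of the 7 was 0.055.

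Among 26 repair proteins that bind RPA or SOSS or act with them, edgeR called 0. At an unadjusted p of 0.05, 2 were lower and 4 higher, against 9.2% and 7.18% of all tested genes. DESeq2 called 1 higher, against 1.06% of the genes to which it gave an adjusted p. The median log2 fold change of the 26 was 0.023 and the range -0.41 to 0.32. With the replicate block, 4 were called lower (ATM, ETAA1, UNG and XPA) and 4 higher (ATR, MRE11, PRIMPOL and SMARCAL1), counts near the 13.4% and 11.4% of all tested genes. SMARCAL1, an annealing helicase that RPA recruits to stalled forks, was at 35.3 ± 2.07 CPM against 44.1 ± 0.509 CPM, a log2 fold change of 0.32 (SE 0.0691, edgeR adjusted p = 0.0627, and 0.000162 with the block). The nuclease gene MRE11 had a log2 fold change of 0.24 (SE 0.0803, edgeR adjusted p = 0.190, and 0.0106 with the block) and PRIMPOL, a primase, of 0.25 (SE 0.0946, edgeR adjusted p = 0.235, and 0.0225 with the block). ETAA1, which binds RPA and activates ATR, had a log2 fold change of -0.32 (SE 0.101, edgeR adjusted p = 0.165, and 0.00307 with the block). XPA, a nucleotide excision repair protein, had a log2 fold change of -0.41 (SE 0.139, edgeR adjusted p = 0.187, and 0.0298 with the block), and the break-responsive kinase ATM of -0.28 (SE 0.127, edgeR adjusted p = 0.326, and 0.00507 with the block).

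**Figure D5:**
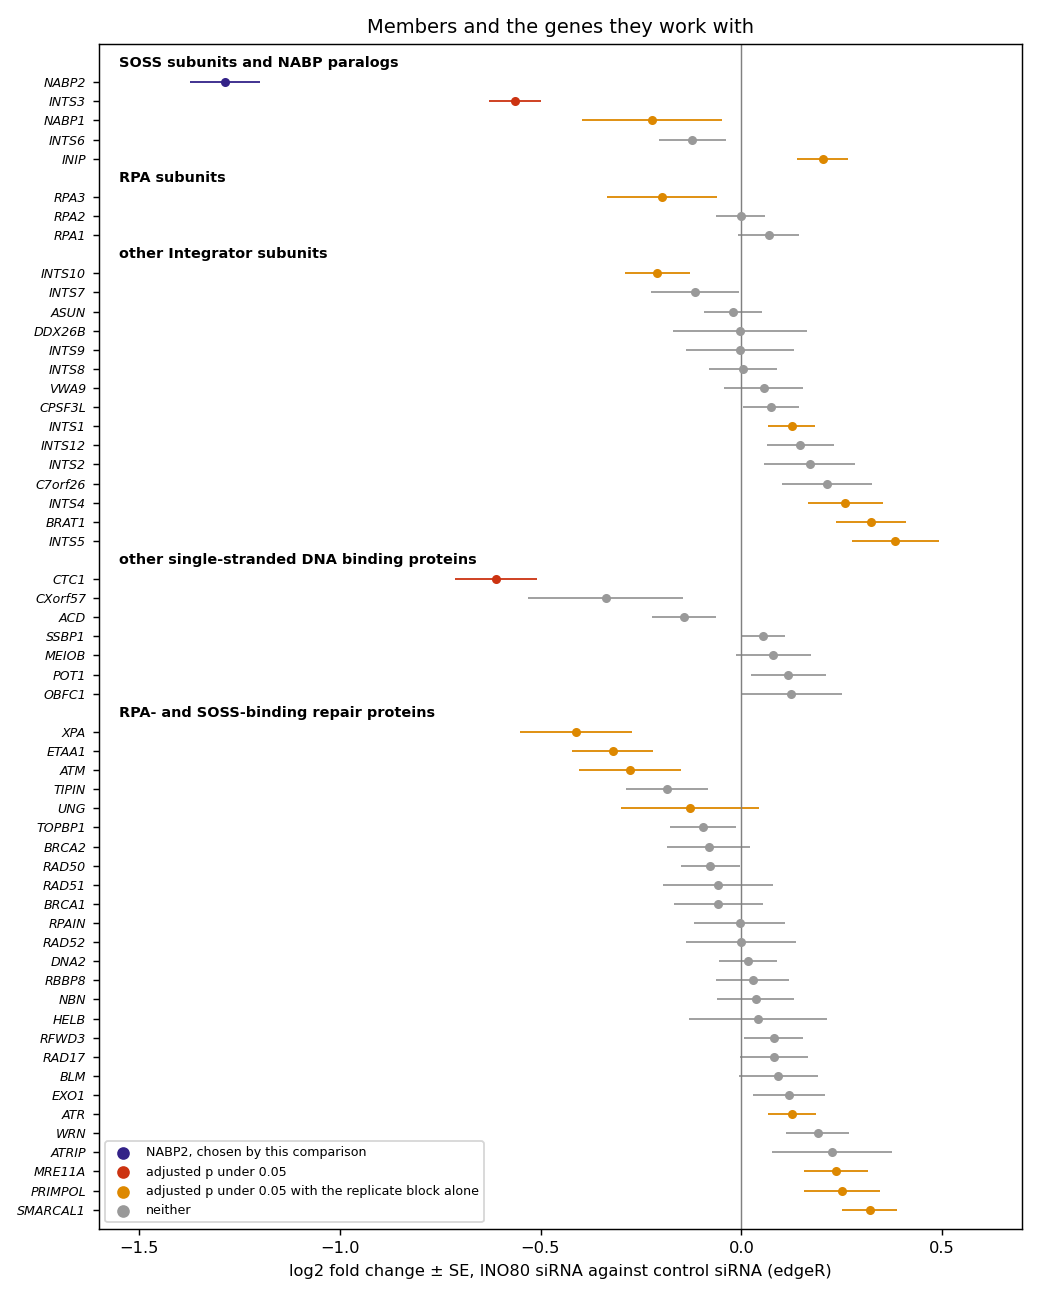
Log2 fold change with its SE for the 8 members and the tested genes of 3 lists they work with, by gene symbol in the deposited table and coloured by the edgeR adjusted p without and with the replicate block. Apart from NABP2, which has a colour of its own, INTS3 and CTC1 are the genes past the threshold without the block. The 15 genes on the Integrator list, with the binding partner BRAT1 among them, span -0.21 to 0.38.

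Across the 6 libraries, the 5 genes whose log2 CPM was most like that of NABP2 were VPS29, a retromer subunit (Pearson r = 0.998), CLTC, the clathrin heavy chain (0.997), FBXO28, an F-box protein (0.997), CCP110, a centriole protein (0.996), and TM9SF4, a membrane protein (0.996). Their log2 fold changes were -0.67, -0.43, -0.37, -0.41 and -0.29. Because NABP2 split the libraries into their 2 groups, a high r here mainly restates a difference between those groups with little spread inside them. Among the members, INTS3 had an r of 0.974 with NABP2, INIP of -0.882, INTS6 of 0.620, RPA3 of 0.503, NABP1 of 0.388, RPA2 of 0.0816 and RPA1 of -0.319, all over the same 6 libraries.

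A 7-base sequence, AACGGCA, was also located in the members, and it was picked with earlier results of these data known. It occurred in the canonical GENCODE transcript of 8.67% of 12669 tested coding genes. Of 232 genes that held it in the 3′ UTR, 11.6% were called lower by edgeR, of 816 that held it in the coding sequence and not the 3′ UTR, 3.8%, and of 11570 without it, 1.42%. The 816 include INO80, the siRNA target, and NABP2, which this comparison chose. Because the 7 bases were picked with these data known, the shares describe the same comparison and are not a test of the sequence. The genes were not matched for transcript length or level, and no other 7-base sequence was compared. The shares therefore cannot be called particular to this sequence. Among the 8 members only NABP2 held it, once, in the coding sequence (hg38), whereas INO80 held it at 3 coding positions, and the sites are shown with 10 bases on each side and the match in capitals.
NABP2 coding site, chr12:56229178-56229184, plus strand: ccctgttagtAACGGCAaagaaacccg
INO80 coding site 1, chr15:41087612-41087618, minus strand: tatgagcaacAACGGCAcctacttgga
INO80 coding site 2, chr15:41049389-41049395, minus strand: gagttatttgAACGGCAagaaacttgg
INO80 coding site 3, chr15:40985399-40985405, minus strand: caggaagagaAACGGCAacaggaggaa

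INTS3 held no such match, nor did the 5 genes most like NABP2. The siRNA sequences were not used here, and the part of this match in the level of NABP2 was not tested.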

How the data were processed

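RNA-seq of HK-2 cells covered 3 control siRNA and 3 INO80 siRNA libraries, grouped and numbered as in their labels. The deposited table gave raw counts per gene and FPKM, which the authors made by dividing each count by exonic length and library total. The submitters' notes name HISAT2 2.0.1, HTSeq and hg19, while the study's methods name ELAND and hg38, and the table's coordinates were used as GRCh37. Promoter and transcript sequences came from GRCh38.p14 (RefSeq) and hg38 (GENCODE 44), with no conversion between builds.

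The members and lists were chosen with earlier results of these data known. The named genes were all 8 members, INO80, the 5 genes most correlated with NABP2, the 3 smallest p per list and direction, every gene overlapping a member and the nearest tested neighbours of NABP2. SLC27A3, INTS6L and the genes named because the blocked fit called them (INTS1, ATR and UNG) fall outside this rule and were chosen after their values were seen. Counts were filtered with filterByExpr, scaled by TMM and tested with edgeR 4.0.16 (quasi-likelihood, two-sided, R 4.3.3), with Benjamini-Hochberg adjustment over 15343 genes and a threshold of 0.05. The procedure was tested on simulated counts whose changes were larger than those of the members, so that test does not show how it handles smaller changes. Alternatives were DESeq2 1.42.0, limma 3.58.1 on log2(FPKM + 0.1), RLE scaling, no filter, leaving out each library, and the replicate number as a block. The block was used because deviations from the group means correlated at 0.581, 0.365 and 0.360 in same-numbered libraries and at most at 0.152 in others, although the labels do not say what a number shares. Some cell type markers are not reported here.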

Additional observations from a re-analysis of the deposited data

How the results depend on the processing

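With the replicate block, edgeR called 4 of the 7 genes other than NABP2 in place of 1, DESeq2 with the block called 2 (NABP1 and INTS3, without INIP and RPA3), limma on FPKM called 0, and the blocked fits without pair 1, 2 and 3 called 6, 2 and 4, while fits without a single library called 0 to 1. Of the 48 tested genes on the 3 partner lists, 1 was called by edgeR, 2 by DESeq2, 2 without the filter, 0 by limma, 14 with the block, 4 by DESeq2 with the block, 13, 7 and 10 in the blocked fits without pair 1, 2 and 3, and 0 when any 1 library was left out. Of all tested genes, edgeR called 1.49% lower and 0.261% higher, and 24.8% in either direction with the block. The blocked count of 14 was thus near the background. DESeq2 called 3.87% lower and 1.06% higher of the genes to which it gave an adjusted p. Shares for the other fits are not given here. NABP1 passed the threshold at log2 fold changes of -0.23 with the block, -0.23 by DESeq2 with the block, and -0.24, -0.22 and -0.21 in the blocked fits without pair 1, 2 and 3. INTS3 missed it with limma at -0.54, and its values without a single library ranged from -0.58 to -0.53. INIP passed it at 0.20 with the block, and at 0.21 and 0.22 without pair 1 and 3. INTS6 and RPA1 passed it only in the blocked fit without pair 1, at -0.19 and 0.076. RPA3 passed it at -0.20 with the block, and at -0.19 and -0.27 without pair 1 and 3. RPA2 changed sign around 0, with 0.010 without the filter, 0.0067 with limma, 0.044 in the blocked fit without pair 1 and -0.025 to 0.046 without a single library. The NABP2 share of both paralogs was 10.4 and 5.33% by counts and 15.9 and 8.35% per canonical transcript length in the control and INO80 groups. The alternatives that leave out a pair, DESeq2 with the block and the canonical lengths were chosen after seeing the data. The cause of these differences was not tested.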
